A study of Homo sapiens with 12 samples.

Results

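The 44 genes described here encode the proteins that license, unwind and copy DNA. They were chosen by name from textbook roles, with earlier results of these data known, and comprise MCM2 to MCM7 and MCM10, ORC1 to ORC6, the licensing genes CDC6, CDT1 and GMNN, CDC45 and the 4 GINS genes, primase and polymerase alpha, polymerases delta and epsilon, PCNA and the RFC clamp loader, the RPA genes, LIG1 and FEN1, and RRM1, RRM2 and TYMS of nucleotide supply. All 44 were found among 22379 genes, and all 44 reached the untreated mean of 10 that was required of the 13811 genes tested. The cells were U2OS, a human osteosarcoma line, which received Cas9 and a guide RNA by transient plasmid transfection and were selected with puromycin as pools, not clones. The guide was nontargeting (NONT, labelled WT) or was directed at NUP93 (NUP93-KO), which encodes a nuclear pore protein, or at EXOSC5 (EXOSC5-KO), which encodes a subunit of the RNA exosome. Each genotype received DMSO (untreated) or 1 μM triptolide for 8 h, in 2 replicates of each of the 6 groups, and polyadenylated RNA was sequenced. Triptolide blocks the start of transcription by binding XPB, a TFIIH subunit needed to open promoter DNA, and the knockouts served as a means to hold up mRNA levels while the drug depletes RNA polymerase II.

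A human cell copies its genome by loading MCM2 to MCM7 rings onto DNA in G1 phase, with the origin recognition complex, CDC6 and CDT1 as loaders and geminin (GMNN) as the inhibitor of CDT1. In S phase CDC45 and GINS join the ring to form the active helicase, primase and polymerase alpha lay down primers, PCNA is loaded by RFC, and polymerases epsilon and delta extend the leading and lagging strands. Many of these genes are textbook targets of E2F transcription factors and are transcribed most at the G1/S transition. In a mixed population of cells, fewer cells of a type, such as cells in S phase, and less RNA per cell cannot be told apart.

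The promoters of these genes share sequence that their selection by name did not use. RefSeq promoter windows on GRCh38.p14, each from 250 bases before to 50 after a gene start, were matched for 38 of the 44 genes. An E2F-type octamer (TTTCCCGC, TTTCGCGC, TTTGCCGC or TTTGGCGC, on either strand) stood in 19 of these 38 genes, or 50%, against 3.99% of 27305 genes and 6.64% of the tested genes that had a window. CCAAT stood in 60.5% of the 38 against 39.7% of all genes and 43.1% of the tested genes. TTTGAA, the core letters of the cell cycle homology region of G2/M genes, stood in 1 of the 38 against 18.2% and 14.0%. A match is a run of letters and not a measured binding site. Sites of 7 genes to which the results below return are printed 5′ to 3′ along the gene, with the octamer in capitals:
MCM2: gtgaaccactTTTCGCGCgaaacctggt
MCM7: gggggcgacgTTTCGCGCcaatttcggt
CDC6: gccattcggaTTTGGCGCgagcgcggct
CDT1: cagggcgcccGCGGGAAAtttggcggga
PCNA: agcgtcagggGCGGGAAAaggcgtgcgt
TYMS: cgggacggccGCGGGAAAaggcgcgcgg
POLE: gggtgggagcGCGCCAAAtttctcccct
The MCM2 stretch is chr3:127598403-127598430 on the plus strand, with an octamer that begins 2 bases after the RefSeq start, and that of MCM7 is chr7:100101389-100101416 on the minus strand, 9 bases before it. CDC6 is shown at chr17:40287876-40287903 on the plus strand, 7 bases after the start, and CDT1 at chr16:88803744-88803771 on the plus strand, 35 bases before it. The PCNA stretch is chr20:5126664-5126691 on the minus strand, 59 bases before the start, that of TYMS is chr18:657604-657631 on the plus strand, 39 bases before it, and that of POLE is chr12:132687343-132687370 on the minus strand, 18 bases before it. CDT1, PCNA and TYMS carry the same 8 letters on the opposite strand, and of these CDT1 lost the most and TYMS among the least mRNA of the 44 genes. Whether the octamer bears on the loss was not tested, and medians of the genes with and without it are given below.

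Values are the deposited spike-in-normalised signal, scaled to follow mRNA per cell, and the approximate depth was 8.57 to 11.95 M reads per library. Osteoblast-lineage COL1A1, SPARC and VIM were at 7368 or more in all libraries and RUNX2 and ALPL were present, while COL1A2 was at 4.05 to 42.0, BGLAP at 0 to 5.68, and SP7 and IBSP were listed at 0. The summed value of 5 blood markers was at most 4.70, of 5 epithelial markers 48.2 to 221 and of 4 endothelial markers 3.22 to 78.7. Of the targeted genes, untreated NUP93 stood at 1395 and 1432 in its knockout and at 1753 and 2489 with the nontargeting guide, and untreated EXOSC5 at 216 and 148 in its knockout and at 299 and 481 with that guide. Of the untreated NONT libraries, replicate 1 lay below replicate 2 by a median of 0.51 on the log2 scale over genes and 0.56 over the 44, against at most 0.25 in the other groups. Results that rest on NONT are described without each of these libraries where it changes a call. Such a fit leaves 1 untreated NONT library, so its calls do not measure the spread of that group. The labels do not say whether the replicates were separate cultures, so p-values measure only the spread between these libraries.

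Without drug, the most abundant of the 44 per kilobase of transcript in NONT were TYMS, the thymidylate synthase (3868 per kb), PCNA (2669), MCM7 (2371) and RRM2 (2294). The least abundant were GINS3 (65.4 per kb), POLA2 (69.4) and POLD3 (89.7), each a subunit of a larger complex. Subunits of one complex therefore stood at levels far apart: POLD2 was at 1997 per kb and POLD3 of the same polymerase at 89.7. Together the 44 genes made up 0.553% of all gene signal with the nontargeting guide, 0.533% after NUP93 knockout and 0.430% after EXOSC5 knockout.

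After triptolide in NONT, mRNA of all 44 genes fell on the spike-in scale, to between 3.02% and 59.4% of the untreated mean. CDT1, the licensing factor, kept 3.02% of its untreated level and MCM10, an initiation factor, 5.85%, whereas RPA3, PRIM1, TYMS and POLD2 kept 54.9% to 59.4%. All 44 passed the limma threshold (Benjamini-Hochberg adjusted p under 0.05 over all genes) against a background of 90.0% of genes, and for each of the 44 the treated libraries were lower than either untreated one, as for 94.8% of genes. The median log2 fold change of the 44 was −1.41, with −1.76 to −1.15 over the 4 treated-to-untreated library pairs, against −1.62 for the median gene. The group as a whole stood 0.21 above the median gene, a difference that was 0.01 without NONT triptolide replicate 2, and 19 of the 44 fell more than the median gene.

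The sign for many of the 44 depended on the scale. All 44 fell on the spike-in scale, which was made to follow mRNA per cell. On the same-total and median-of-ratios scales, higher, a rise or reversed means a smaller loss than in the library as a whole. It does not mean more mRNA per cell. When each library was rescaled to the same total, which moves the median gene from −1.62 to −0.32, 17 of the 44 were lower (38.2% of all genes) and 10 were higher (15.2% of all genes). With median-of-ratios scaling 13 were lower (30.3% of all genes) and 20 higher (27.2%), and with the same mitochondrial sum 41 were lower (81.2%) and 0 higher (0.0796%). Lower on the same-total scale were CDC6, CDT1, GMNN, 5 of the 6 ORC genes, MCM3, MCM10, PCNA, FEN1, RFC1, RFC3, RFC4, POLD3 and PRIM2. Higher on it were CDC45, MCM5, MCM6, MCM7, POLD1, POLD2, POLE, PRIM1, RPA3 and TYMS. Without NONT untreated replicate 1 the same-total split was 15 lower (32.3% of all genes) and 5 higher (12.3%), and without replicate 2 it was 14 (32.9%) and 6 (11.5%).

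**Figure D1:**
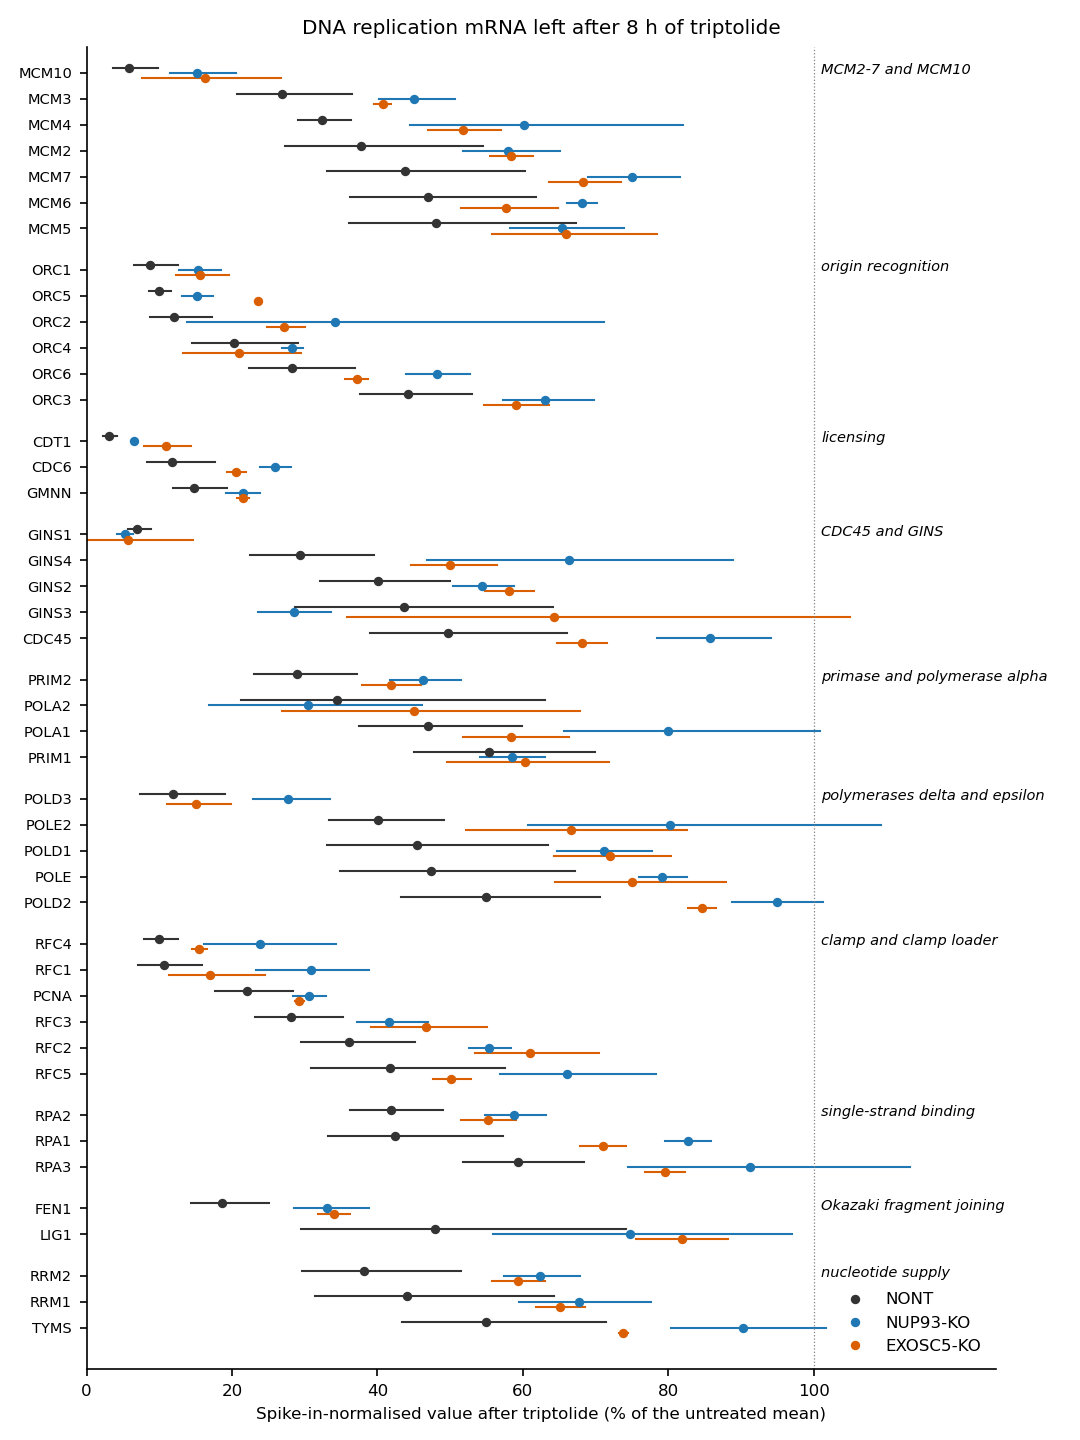
The value left after triptolide is plotted as a percentage of the untreated mean of the same genotype (x axis, spike-in scale) for the 44 genes, grouped by role (y axis), with points for the ratio of group means and bars from the lowest to the highest of the 4 treated-to-untreated library pairs. In NONT, CDT1, MCM10, GINS1 and ORC1 lie between 3.02% and 8.76% and RPA3 and PRIM1 at 59.4% and 55.4%. On the same-total scale 10 of the 44, RPA3 and PRIM1 among them, are higher (15.2% of all genes), which means a smaller loss than in the library as a whole.

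The 3 licensing genes had the lowest median log2 fold change of the 10 roles, at −3.04, with no test between roles. CDT1, which brings the MCM ring to the origin, was at 964 and 1529 in untreated NONT and at 40.2 and 35.1 after triptolide, a log2 fold change of −4.98 ± 0.28 (SE, limma adjusted p = 2.18e-10). Of all genes, 4.63% had a lower fold change. CDC6, the ATPase that works beside it, went from 1738 and 2975 to 307 and 248, a log2 fold change of −3.04 ± 0.23 (SE). GMNN, the inhibitor of CDT1, went from 347 and 549 to 65.4 and 67.1, a log2 fold change of −2.70 ± 0.28 (SE). The licensing factor and its inhibitor thus changed by unequal amounts, and the treated values of all 3 genes lay far below the untreated ones. Because a ratio within a library does not depend on the scale, CDT1 was also set against GMNN in each library. That ratio was 2.78 to 3.27 in the 6 untreated libraries and 0.524 to 1.79 in the 6 treated ones, lowest in treated NONT at 0.615 and 0.524, and it is a description of a pair chosen after its values were seen.

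Of the origin recognition complex, which marks the sites where rings are loaded, 5 of 6 subunits fell more than the median gene. ORC1, the subunit that varies over the cell cycle, was at 433 and 725 in untreated NONT and 46.9 and 54.5 after triptolide, a log2 fold change of −3.44 ± 0.29 (SE, limma adjusted p = 1.94e-08). ORC5 went from 396 and 532 to 46.0 and 46.1, or −3.29 ± 0.26 (SE). ORC2, ORC4 and ORC6 kept 12%, 20.3% and 28.2% of their level, and ORC3 was apart from the rest at 44.2%. The ratio of ORC1 to ORC3 was 0.882 to 1.52 in the untreated libraries and 0.214 to 0.319 in the treated ones, and these ranges did not overlap in any genotype.

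Of the 6 ring subunits, MCM2, MCM5, MCM6 and MCM7 fell less than the median gene, MCM3 fell more, and MCM4 stood at it. MCM2 was at 2296 and 3674 in untreated NONT and at 1250 and 1002 after triptolide, a log2 fold change of −1.38 ± 0.21 (SE) on the spike-in scale, which became 0.28 with median-of-ratios scaling. MCM5, which went from 2532 and 4040 to 1705 and 1455, fell by 1.02 ± 0.22 (SE, limma adjusted p = 0.000383) on the log2 spike-in scale and was 0.32 higher with the same total. MCM3 kept 26.9%, MCM4 32.4%, MCM7 43.8%, MCM6 47.0% and MCM5 48.1%, so subunits that assemble in equal number did not keep equal shares of mRNA. The ratio of MCM3 to MCM5 was 1.09 to 1.58 in the untreated and 0.637 to 0.925 in the treated libraries. MCM10, which is not part of the ring but acts when it is activated, went from 872 and 1572 to 85.3 and 57.7, or −4.04 ± 0.39 (SE, limma adjusted p = 1.04e-07). Its ratio to MCM2 was 0.340 to 0.477 without drug and 0.0576 to 0.183 after it.

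Within the active helicase, GINS1 and CDC45 stood at opposite ends. GINS1 went from 284 and 427 in untreated NONT to 24.6 and 25, a log2 fold change of −3.76 ± 0.88 (SE, limma adjusted p = 0.000853). It is listed at 0 in EXOSC5-KO triptolide replicate 1 and at 23.1 in replicate 2. CDC45, which bridges the ring and GINS, went from 910 and 1381 to 600.5 and 539, a fall by 0.98 ± 0.21 (SE) on the spike-in scale that was a rise of 0.36 with the same total. GINS2, GINS3 and GINS4 kept 40.1%, 43.6% and 29.3%. GINS1 kept 6.97% with NONT, 5.23% with NUP93-KO and 5.76% with EXOSC5-KO, where the 4 pairings ran from 0% to 14.7%.

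The 4 subunits of primase and polymerase alpha kept 28.9% to 55.4% of their mRNA. PRIM1, the catalytic primase, went from 430 and 605 in untreated NONT to 301 and 273, a fall by 0.83 ± 0.23 (SE, limma adjusted p = 0.00257) on the log2 spike-in scale and a rise of 0.50 with the same total. Its partner PRIM2 kept 28.9%, POLA2 34.5% and the catalytic subunit POLA1 46.9%. The ratio of POLA1 to PRIM2 was 0.457 to 0.597 in untreated libraries and 0.723 to 0.948 in treated ones. Here the gene that kept more mRNA is the numerator, whereas in the other ratios given it is the gene that kept less.

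Among polymerases delta and epsilon, 4 of 5 subunits fell less than the median gene and POLD3 fell more. POLE, the catalytic subunit for the leading strand, went from 922 and 1450 to 619 and 505, a fall by 1.05 ± 0.22 (SE) on the log2 spike-in scale and a rise of 0.29 with the same total. POLD2 went from 2737 and 3689 to 1934 and 1596, a fall by 0.85 ± 0.19 (SE, limma adjusted p = 0.00045) and a rise of 0.48 with the same total. POLD1 and POLE2 kept 45.4% and 40.1%. POLD3, in contrast, went from 265 and 414 to 30.1 and 50.7 and kept 11.9%, and its ratio to POLD2 was 0.0970 to 0.148 in untreated and 0.0156 to 0.0353 in treated libraries.

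PCNA, the sliding clamp, went from 2820 and 3990 in untreated NONT to 801 and 705, a log2 fold change of −2.16 ± 0.19 (SE, limma adjusted p = 3.2e-08). Of its loader, RFC4 went from 403 and 516 to 40.7 and 50.7, or −3.30 ± 0.29 (SE), and RFC1, the large subunit, kept 10.6%. RFC3, RFC2 and RFC5 kept 28.1%, 36.1% and 41.7%. The 5 loader subunits therefore fell into a pair that kept about the same small share and 3 that kept more, and the ratio of RFC4 to RFC5 was 0.629 to 0.811 without drug and 0.127 to 0.327 after it.

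RPA, the complex that coats single-stranded DNA, was among the roles that kept most mRNA, and none of its 3 subunits fell more than the median gene. RPA3 was at 856 and 1015 in untreated NONT and at 586 and 525 after triptolide, a fall by 0.75 ± 0.20 (SE, limma adjusted p = 0.00215) on the log2 spike-in scale and a rise of 0.59 with the same total. RPA1 and RPA2 kept 42.5% and 41.9%. The same held for nucleotide supply, where TYMS went from 5120 and 7357 to 3659 and 3192, a fall by 0.84 ± 0.19 (SE) on the spike-in scale and a rise of 0.49 with the same total. RRM2, the small subunit of ribonucleotide reductase, went from 5868 and 9079 to 3022 and 2689, or −1.36 ± 0.20 (SE) on the spike-in scale and 0.30 with median-of-ratios scaling, and RRM1 kept 44%. Of the genes that join Okazaki fragments, the flap nuclease FEN1 kept 18.6% and the ligase LIG1 48.0%.

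**Figure D2:**
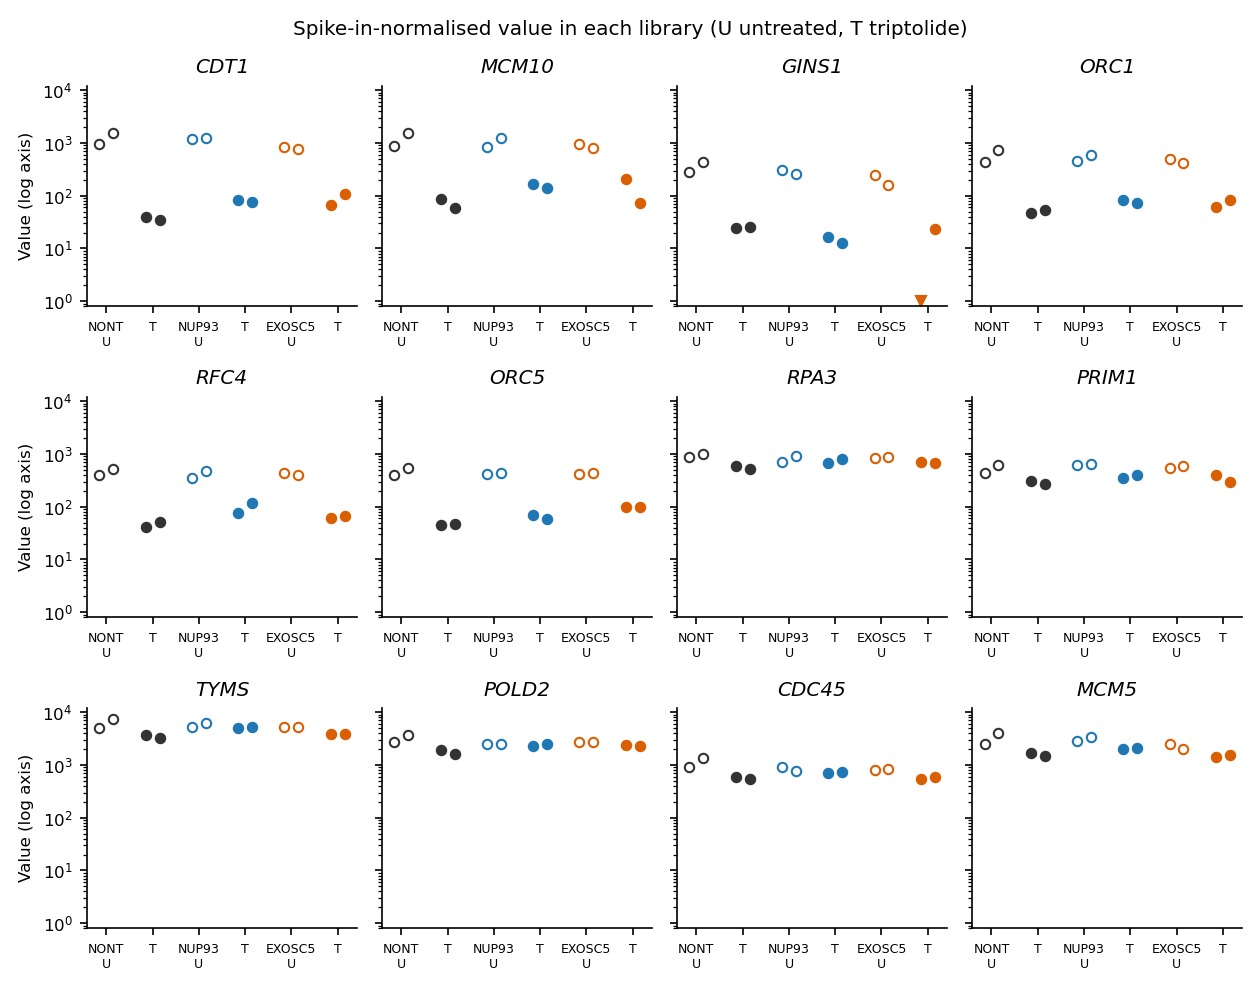
Spike-in-normalised values (y axes, log scale) of the 6 genes that fell most and the 6 that fell least in NONT are plotted for each of the 12 libraries, with open circles for untreated and filled circles for triptolide libraries of NONT, NUP93-KO and EXOSC5-KO, and the triangle at the floor of the GINS1 panel marks a value listed at 0. The treated CDT1 values of 35.1 to 110 lie far below the untreated ones of 768 to 1529, while those of RPA3 and TYMS come close to the untreated values in NUP93-KO. The last 6 panels show genes that are higher in NONT on the same-total scale, which means a smaller loss than in the library as a whole.

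In the knockouts the loss was spread over the 44 in much the same order. In NUP93-KO 33 of the 44 fell, against 55.1% of all genes, and in EXOSC5-KO 36 fell, against 64.3% of all genes. None was higher on this scale at an adjusted p under 0.05 in limma, where 19 and 11 of 13811 genes were. None was at an unadjusted p under 0.05 either, where 30 and 14 genes were. The treated libraries were lower than either untreated one for 39 of the 44 in NUP93-KO (79.1% of all genes) and for 43 in EXOSC5-KO (88.0% of all genes). The median of the 44 was −0.82 in NUP93-KO (pairings −0.97 to −0.72) against −0.92 for the median gene, and −0.90 in EXOSC5-KO (pairings −1.0 to −0.80) against −1.08. In NUP93-KO the same-total scale gave 23 lower (39.3% of all genes) and 6 higher (13.9% of all genes). In EXOSC5-KO it gave 17 lower (36.8%) and 8 higher (14.7%). With median-of-ratios scaling NUP93-KO had 15 lower (29.7% of all genes) and 15 higher (26.7%), and EXOSC5-KO 15 lower (28.7%) and 16 higher (26.2%). With the same mitochondrial sum NUP93-KO had 42 lower (76.5%) and 0 higher (0.0724%), and EXOSC5-KO 40 lower (75.1%) and 0 higher (0.0434%).

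GINS1 and CDT1 kept the smallest shares in each knockout. CDT1 kept 6.48% in NUP93-KO, at 81.9 and 76.4 after triptolide from 1197 and 1246, and 10.9% in EXOSC5-KO, at 67.0 and 110 from 849 and 768. MCM10 kept 15.1% and 16.3%, ORC1 15.3% and 15.6%, ORC5 15.2% and 23.6%, and RFC4 23.8% and 15.5%. At the other end, POLD2 was at 2262 and 2500 after triptolide against 2468 and 2547 in NUP93-KO, so that its treated and untreated libraries overlapped. The other members whose libraries overlapped in NUP93-KO were POLA1, POLE2, RPA3 and TYMS, and GINS3 did in EXOSC5-KO. Those that did not pass the threshold in NUP93-KO were MCM7, CDC45, POLA1, POLD1, POLD2, POLE, POLE2, RPA1, RPA3, LIG1 and TYMS, and in EXOSC5-KO they were GINS3, POLD1, POLD2, POLE, POLE2, RPA3, LIG1 and TYMS. Across the 44 genes the response in NONT and in NUP93-KO correlated at r = 0.913 (Spearman 0.892), that in NONT and EXOSC5-KO at 0.903 (0.925) and that in the knockouts at 0.922 (0.90), against 0.854 to 0.870 over all 13811 genes. These are descriptions across genes, which are not independent replicates, and the 3 responses use different libraries.

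**Figure D3:**
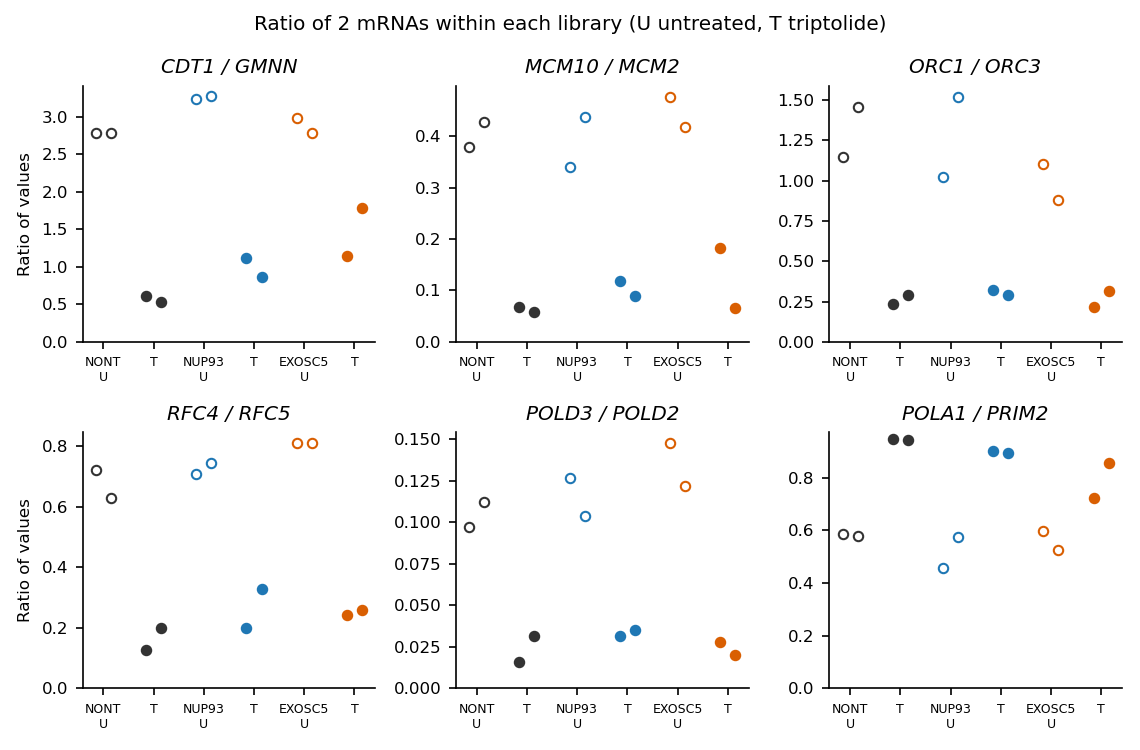
The ratio of 2 mRNAs within each library (y axes, no unit, from 0) is plotted for 6 pairs of genes whose proteins act together, with open circles for untreated and filled circles for triptolide libraries of NONT, NUP93-KO and EXOSC5-KO. The pairs were chosen after their values were seen, so the separation describes these pairs only. In each panel the 6 treated libraries lie on 1 side of the 6 untreated ones. They lie below for 5 pairs, where the gene that kept less mRNA is the numerator. They lie above for POLA1 to PRIM2, where the gene that kept more is the numerator. The ratios do not depend on the scale of a library.

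Whether the knockouts changed the response to triptolide was tested as a difference of differences, which shares the NONT libraries between both comparisons. In limma, 0 of the 44 passed in NUP93-KO (0.760% of all genes were called with a smaller loss) and 0 in EXOSC5-KO (0.319% of all genes). At an unadjusted p under 0.05, 24 of the 44 had a smaller loss in NUP93-KO, where 41.3% of all genes did, and 14 had one in EXOSC5-KO, where 23.1% did. A larger loss was found for 0 of the 44 in either knockout, where 39 and 56 of 13811 genes had one. The median of the difference was 0.67 for the 44 and 0.74 for the median gene in NUP93-KO, while EXOSC5-KO gave 0.58 and 0.57. The value of CDT1 was 1.04 ± 0.39 (SE, limma adjusted p = 0.0803) in NUP93-KO and 1.76 ± 0.39 (SE, limma adjusted p = 0.0691) in EXOSC5-KO. The call turned on 1 library: without NONT untreated replicate 1, which has the lower values of its pair, 35 of the 44 passed with a smaller loss in NUP93-KO (50.7% of all genes) and 24 in EXOSC5-KO (38.0% of all genes). Without NONT triptolide replicate 1 the counts were 5 (18.0%) and 1 (2.93%). Without EXOSC5-KO triptolide replicate 1, CDT1 passed there with a smaller loss (0.152% of all genes), and without replicate 2, which leaves the library where GINS1 is listed at 0, GINS1 passed with a larger one (0.0217%). The same-total scale, which removes a shift common to all genes, gave 0 in either.

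Without drug, the 44 genes stood lower relative to other genes in EXOSC5-KO than in NONT, by a median of 0.35 on the log2 scale. RRM2 was at 4267 and 4163 in EXOSC5-KO where NONT had 5868 and 9079, or 56.4%, and MCM2 at 2002 and 1889 against 2296 and 3674, or 65.2%. Both EXOSC5-KO libraries lay below both NONT libraries for these genes. MCM5 was at 2489 and 2007 against 2532 and 4040, or 68.4%, and RRM1 at 2593 and 2381 against 2776 and 4454, or 68.8%. The share of all gene signal in the 44 was 0.430% and 0.431% in the EXOSC5-KO libraries and 0.547% and 0.559% in the NONT ones. On the log2 spike-in scale the median of the 44 was −0.28, with −0.63 to 0.026 over the 4 pairings of an EXOSC5-KO with a NONT library, so that 1 pairing lay above 0. The median of all genes was 0.07, and 39 of the 44 lay below the median gene. Relative to the median gene, the median of the 44 was −0.35, with −0.39 to −0.36 over the same pairings, and 35 of the 44 lay below it in all 4 pairings, as 27.0% of all genes did.

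The test of single genes depended on the scale. On the spike-in scale 0 of the 44 passed in limma (0.0362% of all genes were called lower and 0.485% higher), with 9 lower (2.46% of all genes) and 0 higher (6.03%) at an unadjusted p under 0.05, and both EXOSC5-KO libraries lay below both NONT libraries for 14 of the 44 against 9.20% of all genes. Scaled to the same total, 11 were lower against a background of 2.09% of genes, and 0 were higher, as 2.79% of genes were. They were RRM2 (log2 difference −0.82 ± 0.06, SE, limma adjusted p = 0.000175), MCM2 (−0.60 ± 0.06, SE, limma adjusted p = 0.000747), GINS2 (−0.57), MCM5 (−0.54), RRM1 (−0.53), RFC2 (−0.39), MCM7 (−0.37), POLD1 (−0.35), MCM3 (−0.29), PCNA (−0.27) and TYMS (−0.27). The count was 18 with median-of-ratios scaling (3.64% of all genes) and 22 with the same mitochondrial sum (5.21%), but on the same-total scale 5 without NONT untreated replicate 1 (0.757%) and 4 without replicate 2 (0.733%). On the spike-in scale without NONT untreated replicate 1, RRM2 and MCM2, or 2 of the 44, passed (0.382% of all genes). On that scale without NONT untreated replicate 2, MCM3, PCNA and TYMS were not below NONT, with log2 differences of 0.068, 0.0022 and 0.022. GINS1, with the lowest fitted log2 difference of the 44 and 56.5% of the NONT level, did not pass on the spike-in or the same-total scale.

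**Figure D4:**
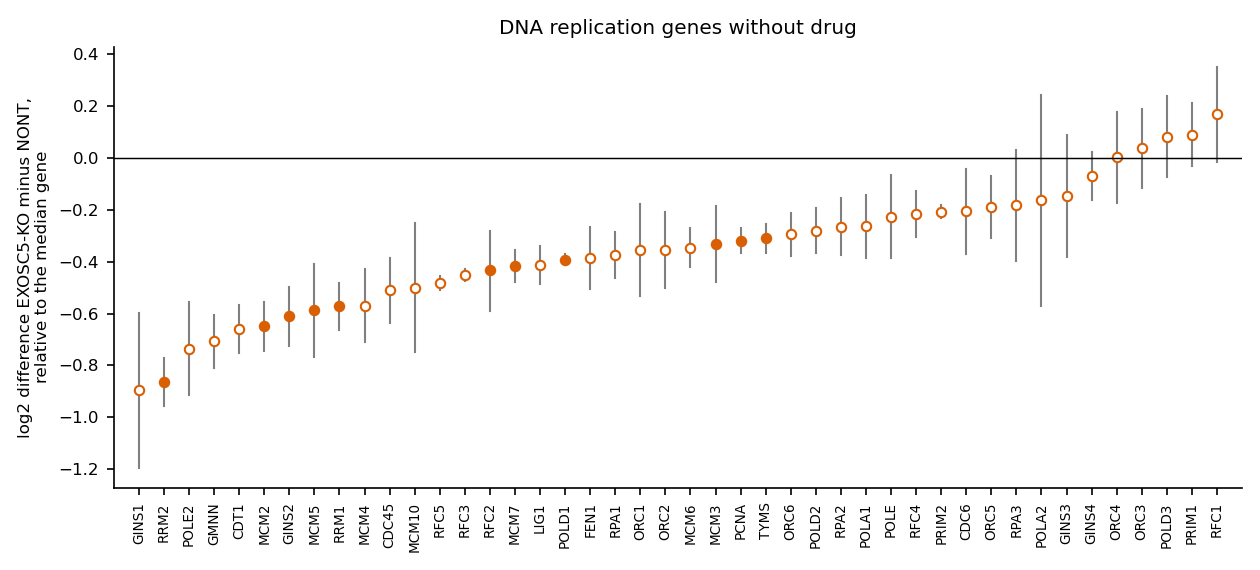
The log2 difference of untreated EXOSC5-KO minus untreated NONT, relative to the median gene (y axis), is plotted for the 44 genes in order, with points for the group means and bars from the lowest to the highest of the 4 pairings of libraries; filled points mark the 11 genes called lower when each library was scaled to the same total. Of the 44 points, 39 lie below 0, from GINS1 and RRM2 at the left to RFC1 at the right.

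The medians of all 10 roles lay below the median gene in untreated EXOSC5-KO, over 2 to 7 genes each and with no test between roles. Relative to the median gene, the licensing genes stood at −0.66, nucleotide supply at −0.57, CDC45 and GINS at −0.51, the MCM genes at −0.50, Okazaki fragment joining at −0.40 and RPA at −0.27, with all members of these 6 roles below it. The clamp and its loader stood at −0.38 with 5 of 6 below, and polymerases delta and epsilon at −0.28 with 4 of 5 below. The ORC genes stood at −0.24 with 4 of 6 below, and primase and polymerase alpha at −0.19 with 3 of 4 below. The genes with and without an E2F-type octamer in the promoter window had medians of −0.35 and −0.36 over 19 genes each. After triptolide in NONT the corresponding medians were 0.30 and −0.15 relative to the median gene.

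Between untreated NUP93-KO and NONT, 0 of the 44 passed in limma on the spike-in scale, where 0.00724% of all genes were called lower and 0.0145% higher. At an unadjusted p under 0.05 the counts were 1 lower (2.45% of all genes) and 0 higher (1.75%). The same-total scale gave 0 as well (0.355% lower and 0.615% higher), with 5 lower and 2 higher at an unadjusted p under 0.05, where 553 and 921 of the 13811 genes were. The median of the 44 was −0.15, with −0.52 to 0.20 over the pairings, against −0.09 for the median gene, and −0.11 to −0.03 relative to it over the pairings, and 33 of the 44 lay below it. Both NUP93-KO libraries lay below both NONT libraries for 5 of the 44, against 12.8% of all genes. RRM2 stood at 79.8% of NONT, MCM2 at 87.4% and MCM5 at 94.5%. Both knockouts are compared with the same NONT libraries.

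The transcripts of the 44 differ from other mRNAs in form. In GENCODE release 44 they had a median 3′ UTR of 771.5 bases against 1370 over tested genes, 14 exons against 9, and a median of 1 ATTTA pentamer in the 3′ UTR against 2. A longer 3′ UTR went with a larger loss among the 44 at a Spearman rho of −0.34 for NONT and of −0.32 and −0.38 for the NUP93 and EXOSC5 knockouts, against −0.17, −0.17 and −0.19 over all tested genes. A higher GC content went with a smaller loss, at 0.25, 0.26 and 0.38 against 0.006, 0.03 and 0.10. For the ATTTA count the values were −0.17, −0.18 and −0.29 against −0.12, −0.13 and −0.17. For NONT, transcript length stood at −0.12 and exon number at 0.21, against −0.19 and 0.17. These correlations across genes are weak descriptions and carry no test. The extremes show exceptions on both sides: the 3′ UTR is 69 bases in RFC4, which kept 9.95%, and 2907 bases in RPA1, which kept 42.5%.

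Other genes of DNA replication and S phase were taken from 6 further lists of 79 genes. As background for all 6 lists, 90.0% of all genes fell in NONT on the spike-in scale. With the same total, 38.2% of all genes were lower and 15.2% higher. Of 12 other origin factors and their regulators, 12 fell in NONT on the spike-in scale and 10 with the same total. Their median was −1.16 relative to the median gene. FBXO5, the inhibitor of the anaphase-promoting complex, went from 598 and 903 to 1.2 and 2.5. In those treated libraries 1 read was worth 0.602 and 0.487, so these FBXO5 values lie near the floor, as those of ETAA1 below do. TICRR went from 398 and 666 to 14.5 and 8.4, and DTL, the CRL4 adaptor that targets CDT1 protein, from 1280 and 2347 to 73.2 and 54.4. Of 21 other fork factors 20 fell, 9 with the same total and 3 higher, and their median was 0.18 above the median gene. EXO1 kept 3.92%, ATAD5 3.95% and CHTF8 11.8%. Of 9 genes of replication-coupled chromatin assembly all fell and 4 did with the same total, and ASF1A, CHAF1A and FAM111A kept 7.15%, 8.76% and 13.7%.

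Of 14 other genes of nucleotide supply all fell on the spike-in scale, as 90.0% of all genes did. With the same total 1 was lower (38.2% of all genes) and 6 were higher (15.2%), like TYMS among the 44. DUT, the dUTPase, kept 63.6% and UMPS 6.01%. All 10 S-phase checkpoint genes fell and 8 did with the same total. CDC25A, the phosphatase that activates CDK2, went from 639 and 956 to 17.0 and 6.5, WEE1, the kinase that opposes it, from 377 and 449 to 9.9 and 14.2, and ETAA1, an activator of ATR, from 145 and 246 to 1.0 and 3.0. Of 13 E2F and RB family genes all fell, while 8 were lower and 4 higher with the same total, and E2F6, E2F3 and E2F7 kept 1.39%, 2.62% and 6.24%.

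In the same lists, the difference of untreated EXOSC5-KO from NONT had the sign seen in the 44 for most genes. Below the median gene lay 11 of 12 origin factors and regulators, 17 of 21 fork factors and 8 of 9 chromatin assembly genes. So did 11 of 14 nucleotide supply genes, 9 of 10 checkpoint genes and 9 of 13 E2F and RB family genes. On the spike-in scale 0 passed in limma, where 0.0362% of all genes were called lower and 0.485% higher. When scaled to the same total, 8 were lower (2.09% of all genes), namely DTL, TIMELESS, TOP2A, PCLAF, ASF1B, TK1, TFDP1 and E2F1. TK1, the thymidine kinase of S phase, was at 2996 and 2837 in EXOSC5-KO where NONT had 3937 and 5539, TFDP1, the partner of E2F factors, at 1868 and 1623 against 2337 and 3504, and E2F1 at 566 and 565 against 731 and 1026. For these 3 genes both EXOSC5-KO libraries lay below both NONT ones. POLD4 and RRM2B, the reductase subunit used outside S phase, were higher with the same total, as 2.79% of all genes were. RRM2B was at 4125 and 4030 against 2338 and 3244.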

How the data were processed

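The authors pseudoaligned reads to Ensembl GRCh38 cDNA and ERCC sequences with kallisto 0.46.1, collapsed them to genes with tximport, retained the protein-coding ones and scaled each library by a DESeq2 size factor from 92 ERCC RNAs, which were added in proportion to counted cells. The deposited values are thus a spike-in-normalised signal, not counts. An error in cell number or spike-in volume moves a whole library. Of gene values under the worth of 20.5 reads, 37.1% to 41.5% per library lay within 0.1 reads of a whole number, so counts were not rebuilt and count models were left out. Genes were matched to GENCODE release 44.

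limma 3.58.1 in R 4.3.3 (lmFit, eBayes with trend) was fitted to log2(value + 1) of all 12 libraries with 6 group means, for 13811 genes with an untreated mean of at least 10. Tests were two-sided, with Benjamini-Hochberg adjustment over all genes, and the pseudocount shrinks fold changes of low genes. The scripts were tested on simulated data. Summaries used Python 3.11.15 and pandas 2.3.3.

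Members and lists were chosen with earlier results of these data known. Genes given by library were the 6 deepest and 6 shallowest responses in NONT with an untreated mean of at least 100, 8 role representatives (MCM2, CDC6, CDT1, GMNN, PCNA, RRM2, ORC1, POLE), and 3 genes per further list farthest from the median gene with the same minimum, of which 1 is not reported here. Others named, and the ratio pairs, were chosen after their values were seen.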

Additional observations from a re-analysis of the deposited data

Results flagged for a closer look

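No member of the 44 was singled out by a difference between genotypes. In the further lists, 2 genes were, because their response to triptolide differed between a knockout and NONT in the test of the difference itself. ETAA1, the ATR activator, was at 19.8 and 34.7 after triptolide in EXOSC5-KO, from 181 and 148 without drug, and at 1.0 and 3.0 in NONT, from 145 and 246. The difference in response was 3.48 ± 0.68 (SE) on the log2 scale, with a limma adjusted p of 0.0446 (0.0145 to 0.291 across alternatives), and it did not pass in 13 of 21 alternatives, among them the same total, median-of-ratios and mitochondrial scaling. The treated NONT values lie near the worth of 1 read in those libraries, which was 0.602 and 0.487. E2F3 was at 45.3 and 48.9 after triptolide in NUP93-KO, from 384 and 404, and at 11.7 and 11.4 in NONT, from 360 and 524. Its difference was 2.08 ± 0.44 (SE), with a limma adjusted p of 0.0452 (0.00345 to 0.509 across alternatives), and it did not pass in 15 of 21, those 3 scales among them. Groups of 2 libraries are too small for a check of outlying libraries.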

How the results depend on the processing

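With pseudocounts of 0.5 and 5, no filter, no trend and the replicate block, the 10 counts of members kept within 1.5 times of their value. The replicate numbers did not pair the libraries (correlations of deviations −0.05 to 0.04). The replicate block gave 44, 31 and 35 members lower in NONT, NUP93-KO and EXOSC5-KO and 0 in the other contrasts. Without the block 90.0%, 55.1% and 64.3% of all genes were lower in these genotypes, and the share with it is not given here. With that block the adjusted p was 0.0534 for ETAA1 and 0.0547 for E2F3. The same total gave 17 lower and 10 higher for NONT, 6 higher for NUP93-KO, and 17 lower and 8 higher for EXOSC5-KO. With median of ratios, 13 were lower and 20 higher, 15 lower and 15 higher, and 15 lower and 16 higher. For untreated EXOSC5-KO the scales gave 11 (same total), 18 (median of ratios) and 22 (same mitochondrial sum).

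The median member response was −0.073, −0.25 and −0.11 with the same total in NONT, NUP93-KO and EXOSC5-KO, 0.24, 0.086 and 0.18 with median of ratios, and −1.05, −1.12 and −1.0 with the same mitochondrial sum. It was −0.94 to −0.78 in NUP93-KO when libraries were left out in turn. Relative to the median gene it was −0.091, −0.11 and −0.059 with no filter, by construction over more genes of low value. Of all 44, 10 were called higher in NONT with the same total (15.2% of all genes) and 20 with median of ratios (27.2%). Among the genes given by library, those reversed on both scales were RPA3 (0.59 and 0.90), PRIM1 (0.50 and 0.82), TYMS (0.49 and 0.81), POLD2 (0.48 and 0.80), CDC45 (0.36 and 0.67), MCM5 (0.32 and 0.63) and POLE (0.29 and 0.60). Reversed with median of ratios only were MCM2 (0.28) and RRM2 (0.30).

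The highest response counts with a library left out came with large shares of all genes, given with the test of the response above. For a required untreated mean of at least 50, the share of all genes is not given here. Under that filter, differences in response passed for 2 members in NUP93-KO and 1 in EXOSC5-KO. With libraries left out in turn they passed for 0 to 35 and 0 to 24, and untreated EXOSC5-KO for 0 to 2. With the same total, chosen after seeing the data, leaving out untreated NONT replicate 1 and then 2 gave 5 and 4 for untreated EXOSC5-KO, and in NONT 15 and 14 lower and 5 and 6 higher. For untreated EXOSC5-KO on the spike-in scale, MCM3, PCNA and TYMS turned without NONT untreated replicate 2, with ranges over left-out libraries of −0.59 to 0.068, −0.50 to 0.0022 and −0.50 to 0.022. The cause was not tested. With 2 libraries a group, absent calls do not show equal levels, and depth limits GINS1 most, at 0 to 25 after triptolide.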
